A study of Saccharomyces cerevisiae W303 with 30 samples.

Results

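Med15 and Med16, subunits of the tail module of yeast Mediator, were removed together within 30 min in Saccharomyces cerevisiae, and newly synthesized RNA (nsRNA) was sequenced. The comparison held 6 of the 30 samples of the series, chosen by their titles: 3 libraries of the Med15/Med16-AID strain given 3-IAA (+IAA) and 3 of the same strain given vehicle (+DMSO). The haploid MATa strain, of the W303 background in YPD at 30 °C, carried an IAA7 degron with a V5 tag on Med16 and an IAA7 degron with an HA tag on Med15, both at their own loci, and OsTIR1 under the GPD1 promoter, so both groups carried both tags and the ubiquitin ligase. The +IAA cultures received 0.5 mM 3-IAA for 30 min, the +DMSO cultures received DMSO at 1 in 2000 for the same time, and all were then labelled with 4-thiouracil for 6 min. All 6 libraries came from 1 strain, so both groups also share whatever the tags did before auxin. The Med15-AID and Med16-AID strains, with 3 +IAA and 3 +DMSO libraries each, carry 1 of these tags and the same OsTIR1 and are used below to show where losing both subunits differed from losing either. The wildtype and med16-deletion strains, with 3 libraries each, carry no degron tag, were given neither 3-IAA nor DMSO, and serve only to choose genes that respond to Med16 loss.

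Mediator carries signals from DNA-bound activators to RNA polymerase II at promoters. Its head and middle modules contact the polymerase, while the tail is the surface that most activators touch. Within the tail, Med15 (also called Gal11) binds the activation domains of factors such as Gcn4, and Med16 (Sin4) fastens the tail to the rest of the complex. Cells without Med16 are left with a separate triad of Med2, Med3 and Med15. The joint depletion was designed to ask whether the transcriptional response to Med16 loss needs that free triad.

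Gene counts per library lay between 4020558 and 6912702 in +IAA and between 4537328 and 5945863 in +DMSO. The share of reads assigned to genes was 24.7 to 28.0% in +IAA and 30.8 to 33.1% in +DMSO, and multiply mapped reads made up 54.3 to 58.2% and 49.1 to 52.0%. Neither range overlapped between the groups, and the part of this difference in the results was not tested. The a-specific genes STE2 and STE6 were at or above 594 CPM (gene counts per 1000000 counted, here before TMM scaling) in all 6 libraries. MFA1, MFA2 and AGA2, also a-specific, lay at 79.1 to 123, 260 to 532 and 68.2 to 111 CPM, while BAR1, another a-specific gene, had no counts. The alpha-factor genes MF(ALPHA)1 and MF(ALPHA)2 were at or below 1.49 and 3.26 CPM. The alpha-specific genes STE3 and SAG1 were not silent, at 11.6 to 19.8 and 26.5 to 48.1 CPM. Levels below are CPM after TMM scaling, a correction that sets the typical gene to no change, and fold changes are therefore relative to the typical gene. The degron acts on protein, so the RNA of the targeted genes does not report the depletion. MED15 (listed as GAL11) was at 187, 192 and 194 CPM in +IAA and at 164, 187 and 218 CPM in +DMSO. MED16 (SIN4) was at 173, 174 and 184 CPM in +IAA and at 161, 174 and 182 CPM in +DMSO. For both genes the groups overlapped, with log2 fold changes of 0.00 ± 0.08 (SE, n = 3 per group, edgeR adjusted p = 0.992) and 0.03 ± 0.06 (edgeR adjusted p = 0.807).

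Relative to the typical gene, joint depletion lowered more genes than it raised, a balance that turned with another scaling. Of 5763 genes tested, 537 were lower (9.32%) and 307 were higher (5.33%) at an adjusted p under 0.05 (edgeR's quasi-likelihood test, Benjamini-Hochberg over all genes), 844 in all (14.6%). The falls were also the deeper changes, with 77 called genes down by more than 2-fold and 20 up by more than 2-fold. With size factors back-calculated from the study's spike-in analysis, which put the median gene 0.12 higher on the log2 scale, the split was 322 lower and 709 higher, with 68.8% of calls higher in place of 36.4%. All 322 of those falls were also called lower with TMM, and all 307 rises called with TMM were among the 709. The p-values rest on the spread between the 3 libraries of a group, pooled over all 12 libraries of the joint and Med15-AID strains.

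The promoters of the genes that moved most are shown because the windows of falling genes more often held a TATA box. Each line runs 5′ to 3′ from 250 bases before the annotated gene start to 50 bases after it (R64, the assembly the files were counted on, with sequence from RefSeq), and capitals mark matches to the 8 spellings TATAAAAA, TATAAAAG, TATAAATA, TATAAATG, TATATAAA, TATATAAG, TATATATA and TATATATG, which can overlap. FLR1 and DSE2 were the largest falls and YML083C the largest rise among called genes whose groups did not overlap and whose higher mean was at least 5 CPM, while ARG3 and GRE2 were added after their values were seen.
FLR1, chrII:254160-254459, minus strand: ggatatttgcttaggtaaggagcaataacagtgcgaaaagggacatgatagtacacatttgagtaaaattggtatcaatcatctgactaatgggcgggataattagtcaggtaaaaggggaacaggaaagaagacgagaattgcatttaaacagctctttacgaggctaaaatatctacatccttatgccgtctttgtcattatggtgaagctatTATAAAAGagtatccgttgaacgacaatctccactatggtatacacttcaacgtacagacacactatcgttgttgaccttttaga
GRE2, chrXV:43444-43743, plus strand: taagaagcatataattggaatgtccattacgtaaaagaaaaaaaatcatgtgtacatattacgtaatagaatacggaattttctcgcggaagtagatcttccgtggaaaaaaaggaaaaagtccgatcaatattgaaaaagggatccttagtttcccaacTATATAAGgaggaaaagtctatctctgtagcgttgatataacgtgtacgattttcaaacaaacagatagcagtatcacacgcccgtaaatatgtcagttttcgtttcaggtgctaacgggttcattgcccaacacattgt
ARG3, chrX:268549-268848, plus strand: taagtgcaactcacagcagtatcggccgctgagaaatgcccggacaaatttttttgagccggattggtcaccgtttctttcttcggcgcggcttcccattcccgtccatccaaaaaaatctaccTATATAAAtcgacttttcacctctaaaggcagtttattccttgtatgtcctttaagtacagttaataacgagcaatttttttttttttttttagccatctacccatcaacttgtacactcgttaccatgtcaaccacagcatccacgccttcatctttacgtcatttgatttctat
DSE2, chrVIII:385260-385559, plus strand: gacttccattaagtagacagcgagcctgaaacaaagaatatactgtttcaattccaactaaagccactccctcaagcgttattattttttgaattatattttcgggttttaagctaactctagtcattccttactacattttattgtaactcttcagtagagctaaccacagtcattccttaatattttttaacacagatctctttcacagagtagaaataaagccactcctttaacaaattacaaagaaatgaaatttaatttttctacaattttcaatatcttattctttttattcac
YML083C, chrXIII:101001-101300, minus strand: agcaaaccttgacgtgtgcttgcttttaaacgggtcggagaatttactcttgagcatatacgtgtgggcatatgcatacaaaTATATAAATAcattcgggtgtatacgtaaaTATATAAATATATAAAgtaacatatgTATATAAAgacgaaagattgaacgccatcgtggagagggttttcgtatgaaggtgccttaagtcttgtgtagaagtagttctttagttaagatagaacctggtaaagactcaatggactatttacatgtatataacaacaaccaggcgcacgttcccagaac
FLR1 has its match at -35 to -28 from the gene start, GRE2 at -90 to -83 and ARG3 at -126 to -119. In the windows shown the gene start is an ATG start codon, so these are not distances from the start of transcription. The DSE2 window holds none, and the YML083C window holds 6 overlapping or neighbouring matches between -168 and -105.

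Across all genes with a window, searched on both strands, 37.5% of 5602 held a TATA box. Among genes called lower the share was 63.6% (334 of 525) and among genes called higher 46.2% (138 of 299). The share called lower was also higher with a TATA box within levels of transcription. Genes were divided into 5 equal groups by mean CPM per kilobase of annotated length over the 6 libraries, and in the highest group 45.2% of 451 genes with a TATA box were called lower, against 14.3% of 669 without one. In the lowest group these shares were 4.14% and 2.38%. The share called higher was also larger with a TATA box over all genes, 6.57% against 4.6% without one. It was 12.6% against 9.51% in the lowest group and 0.665% against 1.35% in the highest. Median log2 fold changes in the highest group were -0.15 with and -0.07 without a TATA box, and the corresponding medians were -0.15 and -0.06 after Med15 depletion and -0.16 and -0.12 after Med16 depletion. In the other 4 groups, from the lowest up, the joint medians were 0.13, 0.04, 0.02 and -0.02 with and 0.09, 0.04, 0.03 and -0.01 without a TATA box, and over all genes they were 0.00 and 0.01. These shares are descriptions, and a match is not a measured binding site.

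**Figure D1:**
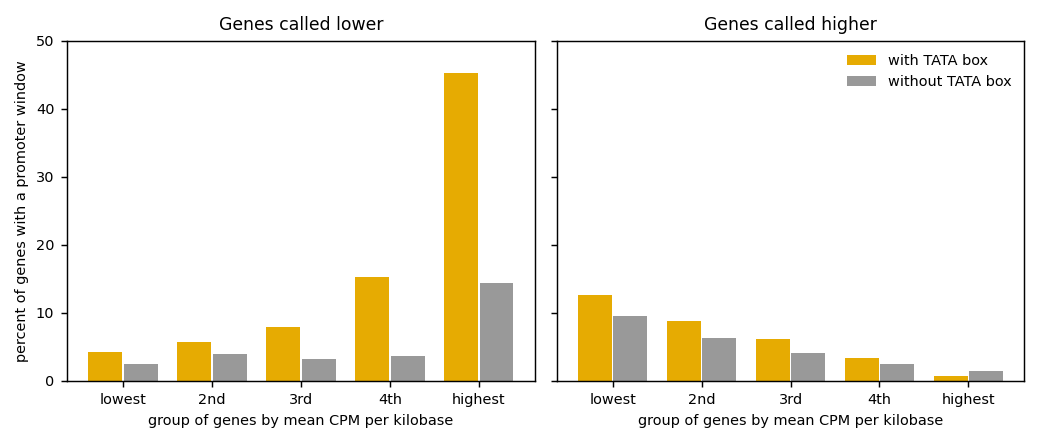
Percent of genes called lower (left) and called higher (right) in the joint depletion, for the 5 equal groups of genes by mean CPM per kilobase, for genes with (yellow) and without (grey) a TATA box between 250 bases before and 50 bases after the gene start. In the highest group 45.2% of genes with a TATA box and 14.3% without one were called lower.

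Falls were concentrated among strongly transcribed genes and rises among weakly transcribed ones. In the highest of the 5 groups by level, 301 of 1121 genes were called lower (26.9%) and 12 higher (1.07%). In the lowest group, 36 were called lower (3.21%) and 123 higher (11.0%). Median log2 fold changes ran from 0.11 in the lowest group to -0.09 in the highest. The median CPM of a gene rose across these groups from 25.2 to 328, and the part of these larger counts in the shares called was not tested.

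Other motifs were counted in the same windows. The Gcn4 motif (TGACTCA or TGAGTCA) lay in 2.82% of all windows, 5.9% of those of genes called lower and 3.34% of those of genes called higher. CACGTG, read by Pho4 and Cbf1, lay in 2.98%, 1.52% and 4.35%, respectively. The stress response element AGGGG lay in 21.7%, 23.4% and 22.1%, and the Hsf1 half-site pair TTCNNGAA in 12.9%, 14.5% and 14.7%. TGTGGC, the core read by the sulfur regulators Met31 and Met32 and searched after the results were seen, lay in 7.87% of all windows, 12.7% of those of genes called higher and 7.24% of those of genes called lower.

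The 12 largest falls, under the limits on overlap and CPM given above, came from genes of varied roles. FLR1 (YBR008C, chrII:252563-254209), a multidrug transporter of the plasma membrane, was at 558, 538 and 529 CPM in +IAA and at 2231, 2475 and 2093 CPM in +DMSO. Its groups lay far apart, a fall of 2.06 on the log2 scale or 4.18-fold (SE 0.07, n = 3 per group, edgeR adjusted p = 2.05e-16). GRE2 (YOL151W), a methylglyoxal reductase, was at 392, 421 and 397 CPM in +IAA against 1441, 1546 and 1355 CPM in +DMSO. It dropped by 1.84 (SE 0.06, edgeR adjusted p = 2.05e-16).
DSE2 (YHR143W), a daughter cell protein that helps dissolve the septum, was at 80.2, 77.6 and 82.1 CPM in +IAA against 271, 290 and 314 CPM in +DMSO. Its log2 fold change was -1.87 ± 0.07 (edgeR adjusted p = 1.58e-15). SCW11, a cell wall glucanase of the same daughter cell programme, was at 67.3 to 76.2 CPM against 235 to 244 CPM. EGT2 and CTS1, the latter the chitinase that separates mother from daughter, belong with them and had log2 fold changes of -1.55 and -1.14.

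PUT4 (YOR348C), the proline permease, was at 5.52, 6.47 and 7.05 CPM in +IAA and at 22.7, 24.1 and 20.8 CPM in +DMSO, a log2 change of -1.85 ± 0.15 (edgeR adjusted p = 7.78e-10). ALD6, which makes acetate from acetaldehyde in the cytosol, was at 482 to 579 CPM in +IAA against 1524 to 1970 CPM, and HXT1, a low-affinity glucose transporter, at 215 to 253 CPM against 686 to 752 CPM. CWP1 and ZEO1, proteins of the cell wall and of the plasma membrane beneath it, fell by 1.66 and 1.64. The remaining members of the 12 largest falls were ARG3, YER053C-A and OSI1, and in all 12 the highest +IAA library lay below the lowest +DMSO library, as the choice of these genes required.

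Apart from YML083C, the 12 largest rises under the same limits were smaller than the falls, and most came from genes at low levels. YML083C (chrXIII:99794-101050), an uncharacterized gene, was at 6.35, 8.35 and 7.29 CPM in +IAA and at 1.16, 2.6 and 2.44 CPM in +DMSO. Its log2 fold change was 1.76 ± 0.29 (edgeR adjusted p = 7.35e-05), on as few as 5 counts in a +DMSO library. MET2 (YNL277W), which commits homoserine to methionine synthesis, was the best measured of the 12, at 108, 121 and 110 CPM in +IAA against 48.9, 53.3 and 49.4 CPM in +DMSO. Its log2 fold change was 1.16 ± 0.08 (edgeR adjusted p = 3.76e-11).
ANB1, the form of translation factor eIF5A used at low oxygen, rose from 2.62 to 4.98 CPM in +DMSO to 7.51 to 11.3 CPM in +IAA. CRC1, the mitochondrial carnitine carrier, was at 22.7 to 26.1 CPM against 7.80 to 12.5 CPM. MHT1, which makes methionine from S-methylmethionine, and MET32, a zinc finger activator of sulfur genes, rose by 1.05 and 0.96 on the log2 scale. ECM8, PDC6, FCY22, YER187W, YPR145C-A and SHC1 completed the 12, with log2 fold changes of 0.91 to 1.15, and the FCY22 call was lost without replicate 1 of +IAA (edgeR adjusted p = 0.0620).

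**Figure D2:**
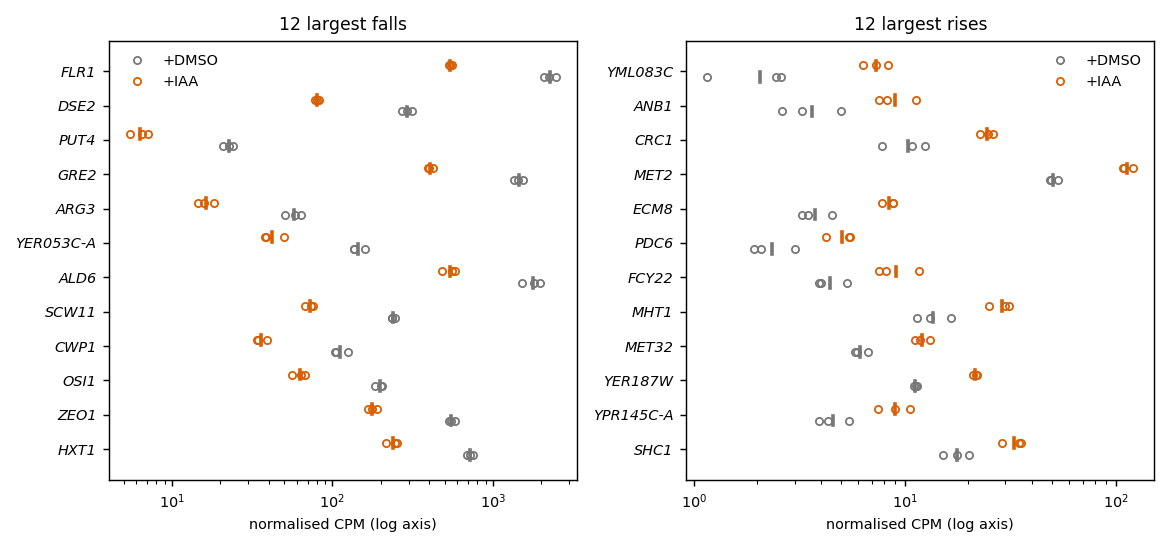
Normalised CPM (log axis) in each of the 3 +DMSO (grey) and 3 +IAA (orange) libraries of Med15/Med16-AID for the 12 largest falls (left) and rises (right), with vertical bars at the group means. The falls reach genes near 2266 CPM (FLR1 mean in +DMSO), while no rise among the 12 passes a mean of 113 CPM (MET2 in +IAA).

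The other genes set out for naming moved less. HO, the mating-type switching endonuclease, was at 91.5, 98.5 and 94.3 CPM in +IAA and at 177, 176 and 185 CPM in +DMSO, a log2 change of -0.93 ± 0.06 (edgeR adjusted p = 3.27e-11). ARG1, which makes argininosuccinate under Gcn4 control, was at 739, 582 and 616 CPM against 1124, 998 and 914 CPM, a log2 change of -0.64 ± 0.08 (edgeR adjusted p = 1.18e-06). PHO5, a secreted acid phosphatase, was at 26.4, 22.5 and 22.8 CPM against 21.1, 21.0 and 22.2 CPM, and its log2 fold change of 0.17 ± 0.13 did not pass (edgeR adjusted p = 0.440).

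The deepest shift of any list examined was that of glycolysis. Of 21 genes of glycolysis and fermentation, 16 were called lower (76.2%) and 2 higher (9.52%), with a median log2 fold change of -1.02 against 0.01 for all genes. Each count for a list here and below stands against 9.32% of all genes called lower and 5.33% called higher. TDH1, TDH2, PGK1 and TPI1, enzymes of the middle of the pathway, had the largest changes of the list, with log2 fold changes of -1.47, -1.36, -1.36 and -1.34. PGK1, phosphoglycerate kinase, was at 1338, 915 and 1028 CPM in +IAA against 2925, 3068 and 2427 CPM in +DMSO (edgeR adjusted p = 3.78e-10). The upstream enzymes moved less, with HXK2 at -0.51, PGI1 at -0.62 and PFK1 at -0.41. The 2 members called higher, PDC6 and ADH2, are a minor pyruvate decarboxylase and the alcohol dehydrogenase used to consume ethanol. TDH1, TDH2 and TDH3, like other close copies named here, share sequence, and only uniquely mapped reads were counted.

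Glucose transport moved in the same direction in part. Of 14 tested genes of hexose transport and its sensing, 5 were called lower and 1 higher, with a median of -0.01. The falls included HXT1 at -1.60, HXT4 at -1.22, HXT3 at -1.16 and HXT2 at -1.03, and the member called higher was the glucose sensor RGT2 at 0.30. Genes repressed by glucose had a median of 0.29, with 6 of 19 called higher and 2 lower. CAT8, an activator of gluconeogenic genes, was at 26.8, 27.8 and 30.3 CPM in +IAA against 21.3, 20.6 and 22.3 CPM in +DMSO. CIT2, the peroxisomal citrate synthase, went the other way at -0.60. DESeq2 called 1 of this list higher and the same number lower as edgeR, 2.

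Histone genes fell nearly as a block. Of 11 tested, 10 were called lower (90.9%, against 9.32% of all genes) and none higher, with a median of -0.74. HTB2, a histone H2B gene, was at 296, 276 and 285 CPM in +IAA against 661, 725 and 644 CPM in +DMSO, a log2 change of -1.24 ± 0.06 (edgeR adjusted p = 5.13e-14). HHF2 and HHT2, encoding H4 and H3, fell by 1.19 and 1.05. The variant gene HTZ1 (-0.37) and the linker histone gene HHO1 (-0.34) were the smallest falls called. In the list of cell cycle regulators, which overlaps the daughter cell genes above, 13 of 23 were called lower (56.5%) and none higher, with a median of -0.26. RNR1, the large subunit of ribonucleotide reductase, fell by 0.91 and the G1 cyclin CLN2 by 0.57.

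Cell wall, membrane and detoxification genes followed. Of 31 genes of the cell wall and flocculins, 19 were called lower (61.3%) and 1 higher (3.23%), with a median of -0.41. PIR1 and HSP150, covalently linked wall proteins, fell by 1.15 and 1.04, and the member called higher was FLO11, the flocculin of filamentous growth, at 7.30 to 9.17 CPM against 3.48 to 5.93 CPM (0.74 ± 0.22, edgeR adjusted p = 0.021), a call lost in DESeq2 and when any of 3 libraries was left out. Of 20 genes of pleiotropic drug resistance, 11 were called lower (55.0%) and none higher, with a median of -0.27. SNQ2, an ABC transporter, was at 996, 956 and 962 CPM in +IAA against 2599, 2679 and 2733 CPM in +DMSO (log2 fold change -1.46 ± 0.06, edgeR adjusted p = 1.58e-15). ATR1, an exporter of the same defence, fell by 1.33. Of 25 ergosterol genes, 17 were called lower (68.0%) and 2 higher, with a median of -0.27, and the 2 higher were the sterol regulators UPC2 (0.37) and ECM22 (0.27). ERG5 and ERG13, at -0.62 and -0.59, had the largest falls. With the back-calculated factors 10 ergosterol genes remained called lower.

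Amino acid genes split by pathway. Of 59 biosynthetic genes of other branches than sulfur, 29 were called lower (49.2%) and 1 higher (1.69%), with a median of -0.14. ASN1, asparagine synthetase, was at 1064, 1033 and 1012 CPM in +IAA against 2150, 2145 and 2032 CPM in +DMSO, a log2 change of -1.02 ± 0.05 (edgeR adjusted p = 2.66e-13). ARO9, an aromatic aminotransferase, and ARG56, the common precursor of acetylglutamate kinase and reductase in arginine synthesis, fell by 0.78 and 0.73. GCN4, the activator of many of these genes, was itself at 554, 466 and 522 CPM against 818, 820 and 798 CPM (-0.66 ± 0.06, edgeR adjusted p = 6.22e-09). Of 18 amino acid permeases and related transporters, 10 were called lower (55.6%) and 1 higher (5.56%), with a median of -0.27, led by PUT4 and followed by BAP2 (-0.84) and PTR2 (-0.68). With the back-calculated factors 15 of the biosynthetic genes were called lower and 5 higher, with a median of -0.02, and 7 of the permeases lower and 2 higher, with a median of -0.15.

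Sulfur and methionine genes moved against that pattern. Of 26 tested, 15 were called higher (57.7%, against 5.33% of all genes) and 2 lower, with a median of 0.46. MET2 and MET32 led, followed by SUL2, a sulfate permease at 79.0, 73.0 and 80.0 CPM in +IAA against 40.4, 42.5 and 42.4 CPM in +DMSO (0.89 ± 0.09, edgeR adjusted p = 3.98e-08). MET14, which phosphorylates adenylyl sulfate, was at 59.8, 88.9 and 77.6 CPM against 41.1, 39.2 and 43.3 CPM (0.85 ± 0.11, edgeR adjusted p = 3.41e-06). The 2 lower were CYS4 (-0.65), which draws homocysteine toward cysteine, and SAM3 (-0.37), an S-adenosylmethionine permease. The median was 0.06 after Med15 depletion, with 6 called higher and 4 lower (5.47% and 11.0% of all genes were), and -0.23 after Med16 depletion, with 0 called higher and 9 lower (6.40% and 10.2% of all genes were). In the tests of the difference, 4 sulfur genes differed between the joint and the Med15 depletion (0.694% of all genes did) and 12 between the joint and the Med16 depletion (3.99% of all genes did). Among those 12, MET3 lay in +DMSO at 33.8 to 37.3 CPM in the joint strain and at 519 to 578 CPM in Med16-AID. MET2 lay at 48.9 to 53.3 and 212 to 297 CPM. The part of such starting levels was not tested.

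Ribosomal protein genes moved little, but nearly all in the same direction. Of 56 small-subunit genes, 6 were called lower (10.7%, near the 9.32% of all genes) and none higher, with a median of -0.15, and of 76 large-subunit genes, 18 were called lower (23.7%) and none higher, with a median of -0.17. With TMM, 55 of the 56 and 75 of the 76 had a negative log2 fold change, against 2721 of all 5763 genes. RPL10 showed the largest fall of these, 0.52. With the back-calculated factors the medians were -0.04 and -0.06, and 0 and 2 genes were called. After Med15 depletion 46 and 62 were called lower (11.0% of all genes were), with medians of -0.24 and -0.25. After Med16 depletion 42 and 56 were (10.2% of all genes were), with medians of -0.34 and -0.34. In the tests of the difference, 0 genes of either list differed between the joint and the Med15 depletion (0.694% of all genes did). Between the joint and the Med16 depletion 0 differed as well (3.99% of all genes did). Heat shock chaperones (13 of 28 lower, 1 higher, median -0.14) included SSA2 and HSP82 at -0.66 and -0.59, and with the back-calculated factors 6 were lower and 3 higher.
Mating genes (8 of 18 lower, median -0.12) included the pheromone gene MFA2 at -1.01, and with the back-calculated factors 5 were lower and the median was -0.02. In iron uptake 7 of 20 were lower, among them the oxidase FET3 at -0.84 and its partner FTR1 at -0.78, and 1 was higher. General stress genes went both ways (3 of 28 higher, 7 lower), from TKL2 at 1.30, on a mean of 4.97 CPM in +IAA, to GPD1, the glycerol-forming dehydrogenase, at -1.24.

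Hypoxic and mannoprotein genes gave 4 higher and 5 lower of 15, and the paralogues ANB1 (1.38) and HYP2 (-1.17), both encoding eIF5A, moved apart. Among 16 citrate cycle genes CIT3 rose by 0.79 and ACO1, IDH1, IDH2 and LSC2 fell by 0.68, 0.51, 0.51 and 0.18. Respiratory chain genes gave 10 lower of 33 (30.3%), among them the NADH dehydrogenase gene NDE1 at -0.60, and purine genes 6 lower of 15 (40.0%), led by ADE12 at -0.47, with none higher in either and with 4 and 3 lower under the back-calculated factors. With TMM, all 33 respiratory chain genes had a negative log2 fold change, with a median of -0.14, or -0.03 under the back-calculated factors.
Peroxisomal genes gave 3 higher of 16, among them PXA1 (0.51) and SPS19 (0.44), and genes of meiosis and sporulation 4 higher of 30 (REC102, SPR28, SPR3 and HOP1), with none lower in either. Ribosome biogenesis (2 lower of 53), phosphate starvation (1 lower of 18) and TFIID, TBP and their regulators (2 lower of 26) stayed below the 9.32% of all genes called lower. Of 33 proteasome genes, 5 tail subunit genes and 20 other Mediator genes, edgeR and DESeq2 called 0 each, and 3, 1 and 2 had an unadjusted edgeR p under 0.05. With the back-calculated factors 0, 1 and 2 of them were called higher. MOT1, the ATPase that removes TBP from DNA, was the larger fall of the TFIID and TBP list at -0.33. Of 12 activators known to bind Med15, GCN4 and MSN2 (-0.22) were called lower, and DESeq2 called 1. Under the back-calculated factors the medians of the general stress, hexose transport, citrate cycle, iron, hypoxic, ribosome biogenesis and proteasome lists, all between -0.06 and -0.01 with TMM, lay between 0.05 and 0.11.

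**Figure D3:**
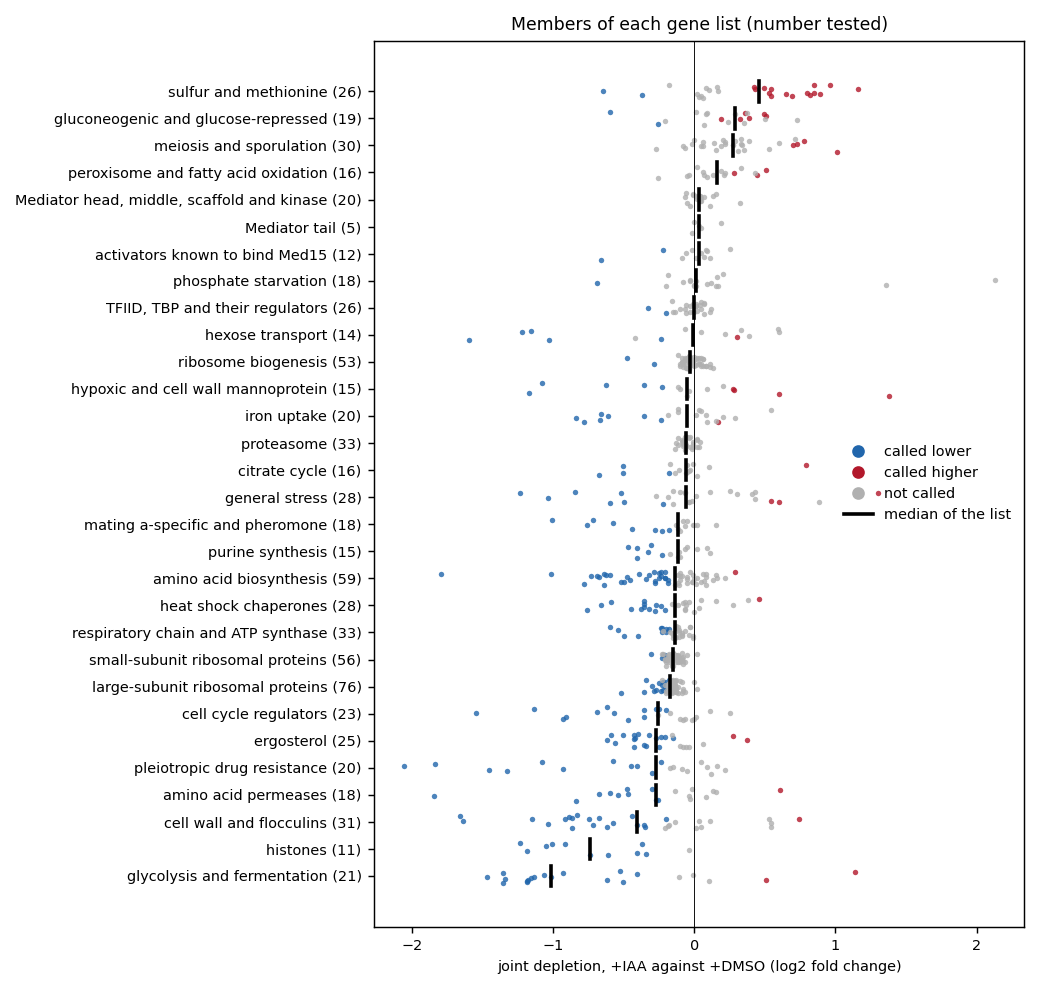
Log2 fold change in the joint depletion of every tested member of each gene list, +IAA against +DMSO, with blue and red points for members called lower and higher, grey points for the rest and black bars at the medians. Lists are ordered by their medians, from sulfur and methionine at 0.46 down to glycolysis and fermentation at -1.02.

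Few genes differed in response between the joint and the Med15 depletion. The log2 fold changes of the joint and the Med15 depletion, which have separate +DMSO libraries, had a Pearson r of 0.769 (Spearman rho 0.652) over 5763 genes and 0.904 over the 844 genes called in the joint depletion. Of the 537 joint falls, 429 were also called lower after Med15 depletion, 79.9% of the joint falls and 67.5% of the 636 Med15 falls, against 11.0% of all genes called lower. Of the 307 joint rises, 129 were shared, 42.0% of them and 41.0% of the 315 Med15 rises, against 5.47% of all genes called higher after Med15 depletion, and no gene was called in opposite directions. Over genes with Med16-AID values the joint and the Med16 depletion had a Pearson r of 0.404 (Spearman rho 0.362, 5733 genes), and 0.550 over the 842 of them called in the joint depletion. The names of the Med16-AID libraries carry another code than those of the joint and Med15-AID strains. Anything that code marks cannot be told apart from strain. Genes are not independent replicates, so these are descriptions.

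The test of the difference itself found 40 genes (0.694% of 5763), with the joint response lower than that of Med15 depletion in 16 and higher in 24. At an unadjusted p under 0.05 there were 378. Without replicate 1 of Med15-AID +IAA there were 23 genes and without replicate 3 of Med15-AID +DMSO 24, and with all 30 libraries in the fit there were 11, all among the 40. The lower set included genes of arginine synthesis. ARG3 (YJL088W), ornithine carbamoyltransferase, was at 18.4, 15.9 and 14.6 CPM in +IAA and at 63.8, 58.9 and 50.9 CPM in +DMSO of the joint strain. In the Med15-AID strain it was at 8.08, 7.83 and 6.74 CPM in +IAA and at 11.1, 12 and 8.30 CPM in +DMSO. The joint fall was 1.80 and the Med15 value -0.47, a difference of -1.33 ± 0.24 (edgeR adjusted p = 0.00398). ARG56 and ARG1 were lower in the joint depletion by 0.73 and 0.64, with Med15 values of 0.08 and 0.11 and differences of -0.82 and -0.75 (edgeR adjusted p = 1.18e-05 and 0.00702). In the fit with all 30 libraries ARG3 and ARG1 no longer passed (edgeR adjusted p = 0.246 and 0.691), while ARG56 did (0.00878). HXT4, a glucose transporter, had -1.22 in the joint and -0.27 in the Med15 depletion, a difference of -0.95 ± 0.14 (edgeR adjusted p = 0.000598).

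The higher set held drug pumps, citrate cycle enzymes and sulfur genes. PDR5, the main ABC drug pump, fell in both strains, from 495, 528 and 557 CPM to 252, 281 and 299 CPM in the joint strain and from 6046, 6126 and 6324 CPM to 1784, 1834 and 1704 CPM in Med15-AID. The joint fall was the smaller, -0.93 against -1.80, a difference of 0.87 ± 0.09 (edgeR adjusted p = 8.65e-06, or 0.0769 with all 30 libraries in the fit). PDR15, its paralogue, and BDH2, a putative butanediol dehydrogenase, had 0.12 and 0.17 in the joint depletion against -0.87 and -0.78, differences of 0.99 and 0.95 (edgeR adjusted p = 2.52e-07 and 0.00383). ACO1 and IDH2 differed by 0.63 and 0.73, both with deeper falls in Med15-AID. MET3, MET6 and MET1 rose in the joint depletion by 0.69, 0.43 and 0.53, with Med15 values of 0.04, -0.11 and 0.04 and differences of 0.65, 0.55 and 0.49.

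Most of these genes already differed between the strains in +DMSO. Of the 16 genes lower in the joint response, 15 were at a higher +DMSO level in the joint strain and 15 of the 16 passed the test of +DMSO against +DMSO. Of the 24 genes higher in the joint response, 20 were at a lower +DMSO level in the joint strain and 22 passed that test. Among all genes 2750 of 5763 (47.7%) passed it. ARG1 averaged 1012 CPM in +DMSO of the joint strain and lay between 56.3 and 68.5 CPM in +DMSO of Med15-AID. The difference in starting level and the difference in response share the +DMSO libraries, and their part in each other was not tested. MET3, at a +DMSO difference of 0.01 (edgeR adjusted p = 0.969), and MET1, at 0.11 (edgeR adjusted p = 0.276), were exceptions, as was RNR1 among the lower set (-0.13, edgeR adjusted p = 0.0554).

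**Figure D4:**
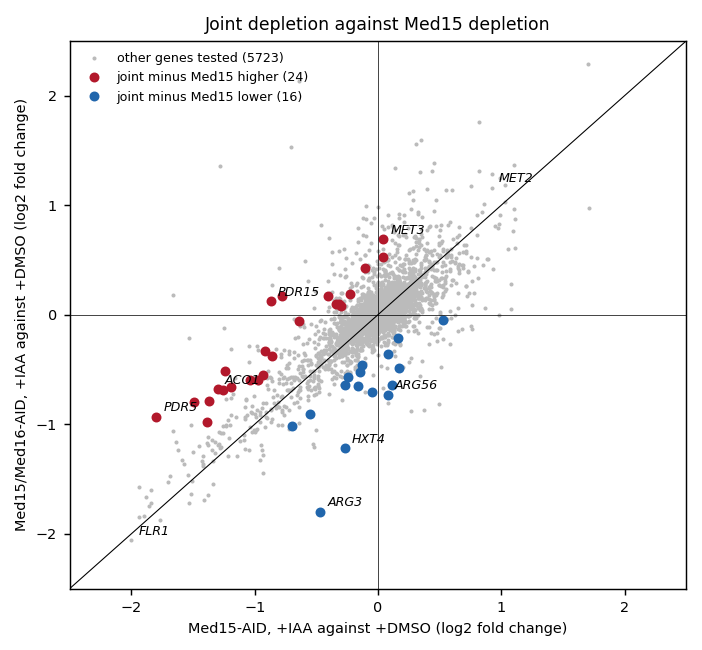
Log2 fold change of each of 5763 genes in Med15-AID (x axis) and Med15/Med16-AID (y axis), +IAA against +DMSO, with the line of equal response. Red and blue points are the 24 and 16 genes whose joint response was higher or lower than the Med15 response in the test of the difference.

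Against Med16 depletion the joint response differed at 230 of 5764 genes (3.99%), 171 lower and 59 higher, with 993 at an unadjusted p under 0.05. The deposited names of the 2 strains' libraries carry different codes whose meaning is not given, and anything they mark cannot be told apart from strain here. Without single libraries the count ran from 130 (without +DMSO replicate 2 of the joint strain) to 398 (without +DMSO replicate 1 of Med16-AID). PUT4 gave the largest difference, falling by 1.85 in the joint depletion with a Med16 value of 1.92, a difference of -3.77 ± 0.33 (edgeR adjusted p = 6.19e-06). FLO11 and HXT4 had Med16 values of 3.67 and 1.14 against 0.74 and -1.22 in the joint depletion, differences of -2.92 and -2.37 (edgeR adjusted p = 3.96e-05 and 5.16e-08). On the higher side stood the phosphate genes SPL2 and PHO84 and the uncharacterized YGR050C, with differences of 3.05, 2.16 and 2.06. SPL2 rested on at most 1.65 CPM in the joint strain with no count in a +DMSO library, and PHO84 on 0.65 to 6.11 CPM. In the cell wall list 14 of 31 genes differed, in glycolysis 9 of 21, among histones 7 of 11 and in drug resistance 6 of 20. CWP1 fell by 1.66 jointly with a Med16 value of 0.16, and FLR1 by 2.06 with a Med16 value of -0.82 (difference -1.24, edgeR adjusted p = 5.3e-05).

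Genes that respond to Med16 loss were followed through the joint depletion. Lists were called in the Med16-AID, wildtype and med16 deletion libraries, none of which is a joint library: a gene had to pass in the deletion against wildtype or in Med16-AID +IAA against +DMSO, with the same sign in both. This gave 440 Med16-up and 575 Med16-down genes, of which 438 and 574 were tested in the joint depletion. The paper's lists of the same names are other lists. They were called with spike-in scaling and hold more up than down genes. Of the Med16-up genes, 68 were called higher (15.5%, against 5.33% of all genes) and 30 lower (6.85%, against 9.32%) jointly, with a median log2 fold change of 0.09, or 0.10, 0.08 and 0.08 in the 3 replicates. Their median was 0.13 after Med15 depletion and 0.27 after Med16 depletion, whose libraries helped choose them. A Med16-up list called from the deletion alone had medians of 0.05 jointly, 0.07 after Med15 depletion and 0.13 after Med16 depletion. Of the Med16-down genes, 267 were called lower (46.5%) and 28 higher (4.88%), against the same shares of all genes, with a median of -0.18, or -0.16, -0.24 and -0.22 in the replicates. The Med15 and Med16 medians were -0.24 and -0.34. All genes tested had a joint median of 0.01. With the back-calculated factors, under which that median was 0.12, the joint medians of the lists were 0.21 and -0.07. The lists themselves were still those called with TMM.

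**Figure D5:**
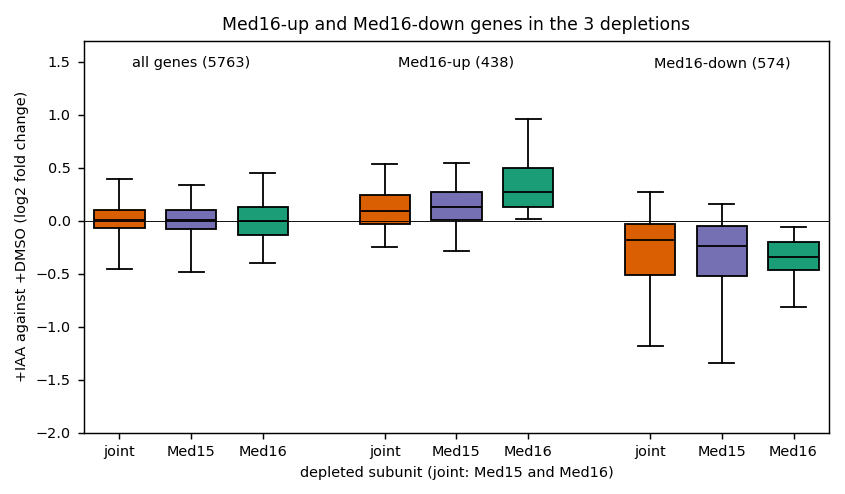
Log2 fold changes, +IAA against +DMSO, of all genes, Med16-up genes and Med16-down genes (numbers tested in parentheses) in the joint (orange), Med15 (purple) and Med16 (green) depletions. Boxes span the quartiles with lines at the medians and whiskers reach the 5th and 95th percentiles. The joint medians of the lists are 0.09 and -0.18, and the Med16 boxes hold libraries that chose the lists.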

How the data were processed

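RNA labelled with 4-thiouracil was purified, depleted of ribosomal RNA with a 5′ exonuclease and sequenced from stranded paired-end libraries. The authors aligned reads with STAR 2.6.1a to sacCer3 (R64) and deposited its gene counts, raw whole-number counts per gene for the unstranded and both stranded readings, and the sense column was used. Per the labels every file is 1 sample. Total gene counts ranged from 4020558 to 6912702, and reads without an assigned gene were left out. The authors scaled by Schizosaccharomyces pombe spike-in counts with DESeq2. Those counts were not used here, so TMM was the main scaling, and size factors back-calculated from the study's DESeq2 fold changes and standard errors (300 genes per comparison) were an alternative.

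edgeR 4.0.16 in R 4.3.3 (filterByExpr, TMM, quasi-likelihood F test, Benjamini-Hochberg adjustment over all genes, threshold 0.05) was fitted to the 12 Med15/Med16-AID and Med15-AID libraries, and separately to the 12 Med15/Med16-AID and Med16-AID libraries. Errors are SE of log2 fold changes. Of 6692 genes in the files, 5763 and 5764 were tested. Counts were simulated with 200 genes changed by 1 on the log2 scale. All 200 were recovered in the joint comparison, with 14 false calls among 5729 genes. Only changes of this size were simulated, so the recovery of smaller ones was not tested. Of the 844 genes called in the joint depletion, 77 fell and 20 rose by more than 2-fold, and the rest changed by no more than that. Alternatives were DESeq2 1.42.0, other scalings and filters, the unstranded column, a replicate block and omission of each library.

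Named genes were MED15, MED16, PHO5, ARG1, FLR1 and HO, the 12 largest rises and falls with adjusted p under 0.05, libraries that did not overlap and a mean of at least 5 CPM, the 3 largest of each sign in each difference from a single depletion, and up to 4 called members per gene list. Others were named after their values were seen. The comparison, the members and the gene lists were chosen with earlier results of these data known. Promoter windows came from RefSeq R64 (5602 of 5763 genes). Figures were drawn with matplotlib 3.10.9.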

Additional observations from a re-analysis of the deposited data

Results flagged for a closer look

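Among the genes taken from the study or named for the size of their change or difference, leaving aside those named only through a gene list, the responses of 7 in the joint depletion differed from those in the Med15 depletion by the test of the difference (edgeR, adjusted p under 0.05, with differences as log2 joint minus Med15). The response was lower jointly for ARG3 (-1.33), HXT4 (-0.95), ARG56 (-0.82) and ARG1 (-0.75), and higher for PDR15 (0.99), BDH2 (0.95) and PDR5 (0.87). All 7 also differed between the +DMSO libraries of the strains, by 2.46, 1.88, 1.62 and 3.99 higher in the joint strain for the first group and by -2.12, -1.41 and -3.55 for the second, in the order given. The part of those starting levels was not tested.

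Against the Med16 depletion 21 genes of the same kind differed by the same test, again leaving aside genes named only through a list. Responses of cell wall and daughter cell genes were lower jointly: FLO11 (-2.92), CWP1 (-1.81), ZEO1 (-1.0), DSE2 (-0.95) and SCW11 (-0.91). Those of transport genes were lower too, with PUT4 at -3.77, HXT4 at -2.37, HXT1 at -1.25 and FLR1 at -1.24. Among metabolic genes ALD6 stood at -1.53, ARG3 at -1.25, GRE2 at -0.86 and ARG56 at -0.63, while YER053C-A stood at -0.93 and HO at -0.57. Responses of phosphate genes were higher jointly, SPL2 by 3.05, PHO84 by 2.16 and PHO5 by 0.70. So were those of YGR050C by 2.06 and the methionine genes MET2 by 1.32 and MHT1 by 1.22. SPL2, PHO84, PHO5 and YGR050C were not called in the joint depletion itself (edgeR adjusted p = 0.101, 0.366, 0.440 and 0.904). In +DMSO, PHO84 averaged 1.76 CPM in the joint strain and lay at 955 to 1291 CPM in Med16-AID. The part of such starting levels was not tested. For PHO5 the joint and Med16 values were 0.17 and -0.53, and for MET2 they were 1.16 and -0.16.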

How the results depend on the processing

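Under the back-calculated S. pombe size factors the differences from Med15 and Med16 depletion numbered 21 and 125 genes in place of 40 and 230, 15 of the 21 being among the 40, and the joint medians of Med16-up and Med16-down genes were 0.21 and -0.07 in place of 0.09 and -0.18, where the median of all genes was 0.12. With all 30 libraries in one fit the difference from Med15 depletion held 11 genes. The Med16-up list called from the med16 deletion alone had a joint median of 0.05. The joint count of 844 genes was 694 with DESeq2 and 682 to 900 without single libraries. Such omissions gave 23 to 48 genes for the difference from Med15 depletion, 130 to 398 for that from Med16 depletion, and list medians of 0.08 to 0.10 and -0.22 to -0.16. Named genes called in the joint depletion kept their direction in all settings run. Lost were FLO11 (DESeq2 adjusted p = 0.0594; 0.120, 0.0632 and 0.0786 in edgeR without +DMSO replicate 1, +DMSO replicate 2 and +IAA replicate 3 of the joint strain) and FCY22. PHO84 and SPL2 passed with the back-calculated factors, and PHO84 also in 2 other fits. Of the list members called, 83 lost their call under the back-calculated factors and 26 in a fit of only the 6 Med15/Med16-AID libraries. Same-numbered joint libraries correlated at 0.21, -0.09 and 0.06 in their deviations from group means, so the numbers were not treated as pairs. A replicate block gave 930 genes in the joint depletion, 56 and 212 in the differences, and medians of 0.09 and -0.19. Genes at a few CPM, such as SPL2 and YML083C, rest on few counts, and intervals at this depth are wide for them.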
